A study of Mus musculus with 8 samples.

Results

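The SUMO proteases and SUMO genes are 8 mouse genes, 6 of them encoding proteases of the SENP family (Senp1, Senp2, Senp3, Senp5, Senp6 and Senp7) and 2 encoding SUMO proteins (Sumo2 and Sumo3). They were read out by gene symbol from 55487 gene rows in each of 8 bulk RNA-seq libraries of haematopoietic stem cells (HSCs). The study compared 4 libraries labelled NTC, a non-target control, with 4 labelled miR652-KD, in which the microRNA miR-652 was knocked down. Cells had been sorted into lysis buffer and amplified with Smart-seq2, a full-length cDNA method without molecular identifiers. The series title places the work in ageing and pseudouridine synthase 10, whereas the sources used here do not give the mouse strain, the age of the animals, the surface markers of the sort or the means of the knockdown. Nothing states that replicates came from separate animals, so p-values reflect only how these libraries vary, and that variation may be technical. The family was chosen by the counts of Senp1, which had passed the test of miR652-KD against NTC in these same files, and the other members were taken for their relation to it. The difference of Senp1 between the groups is therefore a description of how the family was chosen and not a test.

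SUMO is a small protein that is joined to lysines of other proteins, much as ubiquitin is, and alters their partners, location or stability. The heterodimer of Sae1 and Uba2 activates it, and E3 ligases such as the PIAS proteins steer it to substrates. SENP proteases trim SUMO precursors to their mature form and cut SUMO off its substrates again. SENP1 and SENP2 act on all SUMO forms, SENP3 and SENP5 are nucleolar enzymes that favour SUMO2 and SUMO3, and SENP6 and SENP7 shorten SUMO chains. In blood, SENP1 is known for removing SUMO from the erythroid factor GATA1 and from the hypoxia factor HIF1A.

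MiR-652 is made from a hairpin within the Tmem164 gene on chromosome X and gives a mature RNA from each arm. The mature sequences of RefSeq (GRCm38.p6, the build mm10) are shown because they define the letters searched in the members' 3′ UTRs, with the seed, bases 2 to 8, in capitals.
mmu-miR-652-5p: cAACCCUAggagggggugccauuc
mmu-miR-652-3p: aAUGGCGCcacuaggguugug
These lie at chrX:142739020-142739043 and chrX:142739060-142739080 on the plus strand. Of the 8 members, 1 had a match to each full seed in its longest annotated 3′ UTR (GENCODE M21, sense strand). Senp1 held TAGGGTT, the match to the 5p arm, at base 2552 of a UTR of 4146 bases (chr15:98040332-98040338, minus strand). Senp5 held GCGCCAT, the match to the 3p arm, at base 27 of a UTR of 3755 bases (chr16:31963394-31963400, minus strand). Both sites are printed with their flanks, the seed match in capitals.
Senp1: agtcctgtgTAGGGTTcagtgtgagt
Senp5: ctccagaagGCGCCATgatggagcag
Neither site was followed by an A, so both are 7mer-m8 matches. Such letters are common in long UTRs. Of 11615 tested protein-coding genes, 8.61% held TAGGGTT and 2.58% held GCGCCAT. Among 1224 genes with a 3′ UTR of 0.8 to 1.25 times the length of that in Senp1, 22.4% held TAGGGTT. Among 1444 genes matched to Senp5 in the same way, 5.75% held GCGCCAT. These matches are a description of the letters and not of binding. Across all tested genes with TAGGGTT the median log2 fold change was -0.031, against -0.00342 without it, and with GCGCCAT it was -0.053, against -0.00515 without it. Among the genes of matched UTR length the order was the opposite. Medians there were -0.072 with TAGGGTT against -0.099 without it, and -0.057 with GCGCCAT against -0.090 without it.

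Counts in genes came to between 14.0 and 16.8 M (mega) per NTC library and between 14.7 and 19.9 M per miR652-KD library. Mitochondrial genes took 2.62% to 3.11% of them in NTC but 2.00% to 2.44% in miR652-KD; the part of this in the results was not tested. All 8 members were well covered, from 117 counts for Senp5 in 1 library upwards, and all 8 passed the filter on low counts. HSC markers (Kit, Ly6a, Slamf1, Procr and 6 others) were all detected, with a summed level of 2207 to 2622 CPM in NTC and 2317 to 2429 CPM in miR652-KD, where CPM is counts per M counts in genes of the same library. The hairpin of miR-652 had 8 counts in all libraries together, so the knockdown itself could not be checked. Its host gene Tmem164 ranged over 69.1 to 134 CPM in control libraries and 57.5 to 80.1 CPM in knockdown libraries. The log2 difference of Tmem164 was -0.54 (SE 0.21, edgeR unadjusted p = 0.0296, adjusted p = 0.803). The sum of the erythroid markers (10 of 10 detected) did not overlap between the groups, at 2357 to 5736 CPM in NTC against 38.2 to 2336 CPM in miR652-KD. Of these 10 genes, 1 had a log2 fold change above 0, beside 7113 of all 14360 genes tested, and 0 passed the test of miR652-KD against NTC. Among single genes, 4.5% of all genes tested had separate CPM ranges. Neutrophil markers ran from 570 to 14822 CPM in NTC and from 626 to 4911 CPM in miR652-KD, highest in NTC replicates 3 and 4. Of the 8 neutrophil genes tested, 0 were above 0 and 0 passed. Macrophage and dendritic markers (9 of 10 detected, Cx3cr1 at 0), B-lymphoid, T-lymphoid (4 of 8, with Cd3e, Cd3g, Trbc2 and Cd8a at 0) and megakaryocyte markers overlapped between groups. Among those tested in these lists, 1 of 3, 1 of 3, 1 of 1 and 6 of 7 were above 0, in that order. Fewer cells of a type and less RNA per cell cannot be told apart in bulk samples.

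Senp1 stood at 55.6, 43.9, 67.3 and 55.9 CPM in the NTC libraries, in the order of their replicate numbers, and at 126, 127, 160 and 160 CPM in the miR652-KD libraries. All members below are given in the same order. Every miR652-KD library lay above every NTC library, the lowest of the former at 126 CPM and the highest of the latter at 67.3 CPM. The group levels were 55.7 ± 9.56 and 143 ± 19.5 CPM (SD, n = 4). Senp1 (ENSMUSG00000033075.17, mm10 chromosome 15, 98038744 to 98093744, minus strand) rose 2.58-fold, with a 95% interval of 2.00 to 3.32 and a log2 fold change of 1.37 (SE 0.16). It passed edgeR's quasi-likelihood test (adjusted p = 0.0241), which is how it was chosen. Among 14360 genes tested, 6 passed, or 0.0418%, of which 4 were higher in miR652-KD, or 0.0279%. The CPM ranges of the groups were separate for 4.5% of these genes, and 4.2% had a log2 fold change above 1.

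**Figure D1:**
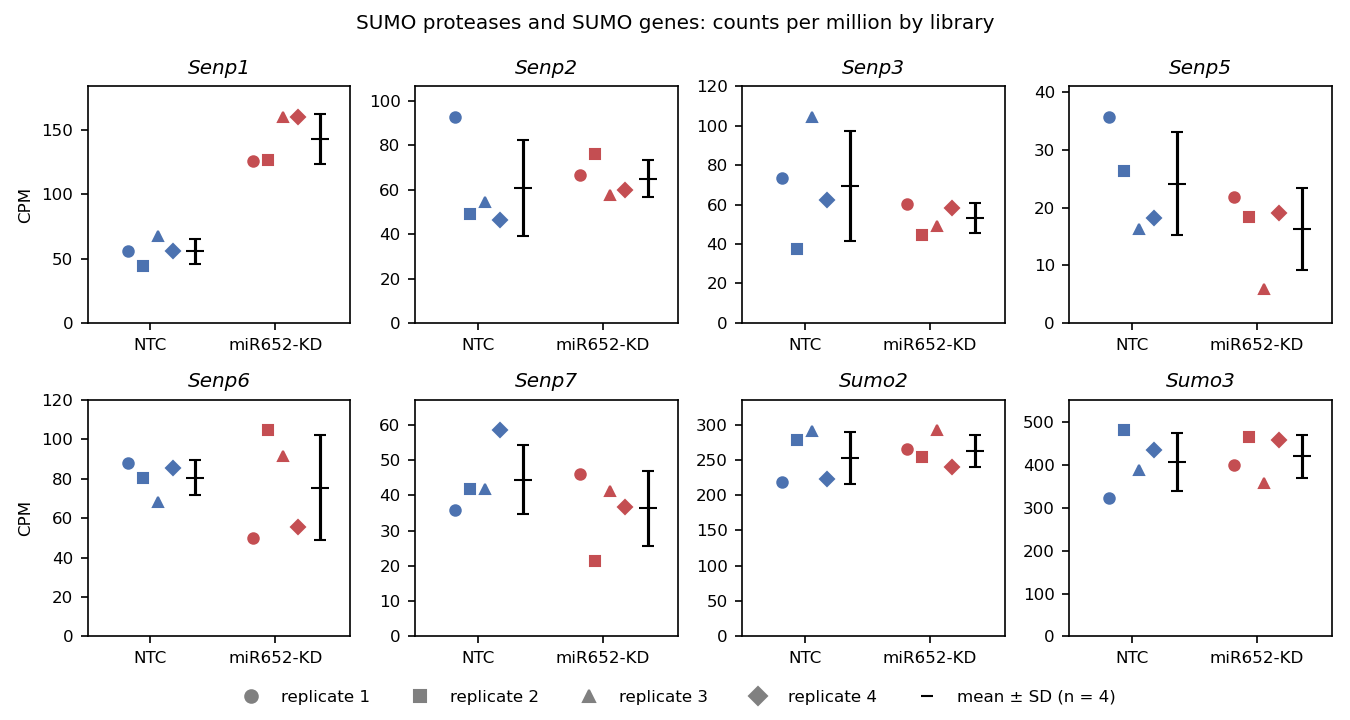
CPM (y axis, from 0, a separate scale for each gene) of the 8 members in each of 4 NTC (blue) and 4 miR652-KD (red) libraries; marker shape gives the replicate number, and black bars give the group mean ± SD (n = 4). The miR652-KD libraries lie at 126 to 160 CPM for Senp1, all above the 43.9 to 67.3 CPM of NTC, while the groups overlap in the 7 other genes.

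In edgeR's test the call on Senp1 needed all 8 libraries. Without any one of them the log2 fold change was 1.28 to 1.47, and edgeR's adjusted p was 0.0824 to 0.160. Erythroid markers summed to 2408, 5736, 2357 and 4203 CPM in NTC and to 38.2, 122, 190 and 2336 CPM in miR652-KD, by replicate number. Within miR652-KD the sum rose with Senp1, while within NTC it was highest where Senp1 was lowest. The closest sums, 2336 CPM in miR652-KD replicate 4 and 2357 CPM in NTC replicate 3, went with Senp1 at 160 and 67.3 CPM. NTC replicates 3 and 4, the libraries rich in neutrophil transcripts, held Senp1 at 67.3 and 55.9 CPM. Without them the log2 fold change of Senp1 was 1.54 (edgeR adjusted p = 0.319). The erythroid sums of the groups did not overlap, although miR652-KD replicate 4 and NTC replicate 3 nearly met. The part of this sum in the value of Senp1 was not separated from that of the knockdown. The part of erythroid or neutrophil transcripts in the value of Senp1 was not tested.

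Senp2 (ENSMUSG00000022855.9, chr16:22009484-22049269, plus strand), the closest relative of Senp1 in substrate range, was at 92.9, 49.1, 54.3 and 46.5 CPM in NTC and at 66.7, 76.1, 57.5 and 60.0 CPM in miR652-KD. All miR652-KD values fell inside the NTC range, whose upper end is NTC replicate 1 alone. The log2 difference was 0.11, with a 95% interval of -0.40 to 0.63 (edgeR adjusted p = 0.999). Without NTC replicate 1, every miR652-KD library lay above the remaining controls, and the log2 difference was 0.37 (SE 0.17; edgeR unadjusted p = 0.0637, adjusted p = 0.862).

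Of the nucleolar pair, Senp3 (ENSMUSG00000005204.12, chr11:69673115-69682084, minus strand) was at 73.5, 37.2, 104 and 62.4 CPM in NTC and at 60.2, 44.6, 49.1 and 58.5 CPM in miR652-KD. Its control libraries spread far more widely than its miR652-KD libraries, with coefficients of variation of 40.1% and 14.1%, and enclosed them. The log2 difference of -0.38 had a 95% interval of -1.003 to 0.25. It was -0.11 without NTC replicate 3, the highest library, and -0.57 without NTC replicate 2, the lowest (edgeR unadjusted p = 0.0315, adjusted p = 0.707). Senp5 (ENSMUSG00000022772.12, chr16:31959672-32003287, minus strand), the least abundant member in CPM, was at 35.7, 26.4, 16.3 and 18.2 CPM in NTC and at 21.9, 18.4, 5.88 and 19.0 CPM in miR652-KD. Only miR652-KD replicate 3 lay below the NTC range. Its log2 difference of -0.56 had an interval of -1.52 to 0.41, the widest of the 8 members, and came to -0.28 when miR652-KD replicate 3 was left out and -0.33 when NTC replicate 1 was.

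Of the chain-editing pair, Senp6 (ENSMUSG00000034252.14, chr9:80066903-80144953, plus strand) was at 88.2, 80.6, 68.4 and 85.3 CPM in NTC and at 50.1, 105, 91.7 and 55.6 CPM in miR652-KD. The knockdown libraries fell on both sides of the controls, replicates 1 and 4 below all of them and replicates 2 and 3 above, so the mean difference of -0.093 on the log2 scale (95% interval -0.63 to 0.44) stands over a wide spread. Senp7 (ENSMUSG00000052917.15, chr16:56048338-56190012, plus strand) was at 35.8, 41.8, 41.6 and 58.4 CPM in NTC and at 46.0, 21.5, 41.1 and 36.7 CPM in miR652-KD. Here replicate 2 of miR652-KD was lowest, and the log2 difference was -0.29 (95% interval -0.89 to 0.32). It was -0.096 without that library and -0.12 without NTC replicate 4, the highest control.

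The genes for the modifier itself were the most abundant members. Sumo2 (ENSMUSG00000020738.16, chr11:115523102-115536276, minus strand) was at 219, 279, 290 and 223 CPM in NTC and at 266, 253, 292 and 239 CPM in miR652-KD. Sumo3 (ENSMUSG00000020265.16, chr10:77606097-77618331, plus strand) was at 324, 481, 388 and 435 CPM in NTC and at 401, 465, 359 and 458 CPM in miR652-KD. The groups overlapped in both genes. The log2 differences were 0.056 (95% interval -0.23 to 0.34) for Sumo2 and 0.049 (-0.27 to 0.37) for Sumo3, so a 2-fold change in either direction lies outside both intervals. Without NTC replicate 1 they were -0.018 and -0.055.

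In all, 1 of 8 members, Senp1, passed the test over all genes, beside 0.0418% of genes tested, and 0 of the 7 others did, with edgeR adjusted p of 0.971 to 0.999. At an unadjusted p below 0.05 the 7 others also counted 0, against 5.99% of all genes, and DESeq2 and limma-voom called Senp1 and no other member, with 0.808% and 0.0487% of all genes called. The fold changes of the 5 other SENP genes had a median of -0.29 on the log2 scale, 1 above 0 and 4 below, while the median of all tested genes was -0.00434. Senp3, Senp5 and Senp7 kept values below 0 under every alternative run, but came as close to 0 as -0.040 for Senp3 and -0.091 for Senp7 without NTC replicates 3 and 4. Senp6 turned to 0.062 without miR652-KD replicate 1 and to 0.026 without miR652-KD replicate 4, and Senp2 to -0.11 without NTC replicates 3 and 4. The upper end of every interval, at most 0.63 for Senp2, lay below the lower end for Senp1, 1.00. That comparison uses the contrast that chose Senp1 and is given without a test, and missing the threshold does not show that the other members did not differ.

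Dividing Senp1 by each relative within the same library removes the scaling between libraries. The log2 ratio of Senp1 to Senp2 was -0.74, -0.16, 0.31 and 0.26 in NTC and 0.91, 0.74, 1.47 and 1.42 in miR652-KD. The ratio to Senp3 went from a mean of -0.24 ± 0.37 to 1.43 ± 0.27, that to Senp5 from 1.26 ± 0.68 to 3.29 ± 1.01, that to Senp6 from -0.54 ± 0.37 to 0.98 ± 0.56 and that to Senp7 from 0.33 ± 0.38 to 2.02 ± 0.46 (log2 ratio, SD, n = 4). In each of the 5 ratios the 4 miR652-KD libraries lay above the 4 NTC libraries. All 5 contain Senp1, which was chosen from this contrast and separated the groups by itself. The ratios therefore restate that 1 difference and are not a test. The narrowest gap was to Senp6, between -0.02 in NTC replicate 3 and 0.28 in miR652-KD replicate 2. The difference between groups ran from 1.22 against Senp2 to 2.03 against Senp5, on the log2 scale. For Senp5 the ratio was 4.76 in miR652-KD replicate 3, where its level was lowest, and 2.52 to 3.07 in the others.

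**Figure D2:**
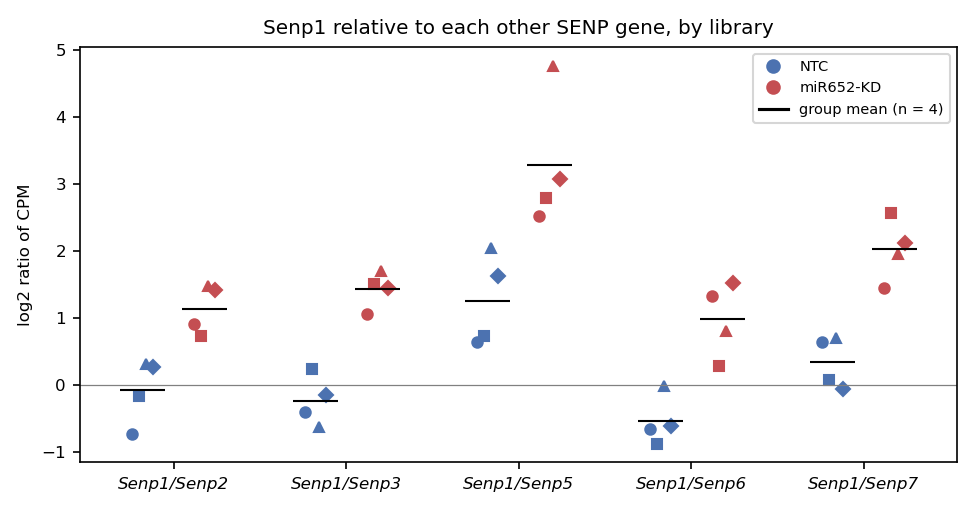
Log2 ratio of Senp1 CPM to the CPM of each other SENP gene (y axis) in every library, with NTC in blue, miR652-KD in red, marker shape for the replicate number as in the plot of member levels, and black lines for group means (n = 4). Group means differ by 1.22 to 2.03, and for each of the 5 partners the 4 red points lie above the 4 blue ones. All 5 ratios contain Senp1, whose own levels already separated the groups.

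Levels of different genes were compared per length, as counts per kilobase of annotated exon per M counts in genes (RPKM). In NTC the order was Sumo2 (146 ± 21.4), Sumo3 (111 ± 18.3), Senp3 (19.1 ± 7.66), Senp6 (11.5 ± 1.25), Senp2 (8.80 ± 3.14), Senp1 (4.69 ± 0.805), Senp5 (3.33 ± 1.22) and Senp7 (3.18 ± 0.694; RPKM, SD, n = 4). Of neighbours in that order, Sumo3 and Senp3 did not overlap between libraries, nor did Senp2 and Senp1, while all other neighbours overlapped. In miR652-KD Senp1 was at 12.04 ± 1.64 RPKM and held rank 4 of the 8, between Senp3 (14.6 ± 2.06) and Senp6 (10.8 ± 3.82), overlapping both. Senp2 came next at 9.43 ± 1.21, above Senp7 (2.599 ± 0.759) and Senp5 (2.24 ± 0.978), which it did not overlap. Sumo2 and Sumo3, at 151 ± 12.8 and 115 ± 13.6 RPKM, remained the top pair. With the longest annotated transcript as the length, Senp1 held rank 7 in NTC, at 8.46 RPKM below 9.20 for Senp7, and again rank 4 in miR652-KD.

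Senp1 made up 8.01%, 9.43%, 9.90% and 9.92% of the summed level of the 6 SENP genes in NTC and 21.0%, 20.2%, 25.8% and 26.2% in miR652-KD. Its share thus went from 9.31% ± 0.899 to 23.3% ± 3.15 (SD, n = 4). This share, like the rank of Senp1 above, rests on the difference that chose Senp1 and is not a test. The summed level was 58.4, 39.2, 57.3 and 47.5 RPKM in NTC and 50.3, 53.0, 52.1 and 51.4 RPKM in miR652-KD, with means of 50.6 ± 9.06 and 51.7 ± 1.14 (SD, n = 4). The group ranges of the sum overlapped. Without Senp1 the 5 other genes summed to 45.9 ± 8.42 RPKM in NTC and 39.7 ± 1.90 in miR652-KD, again with overlap, since NTC replicate 2 was lowest of all at 35.5 RPKM.

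**Figure D3:**
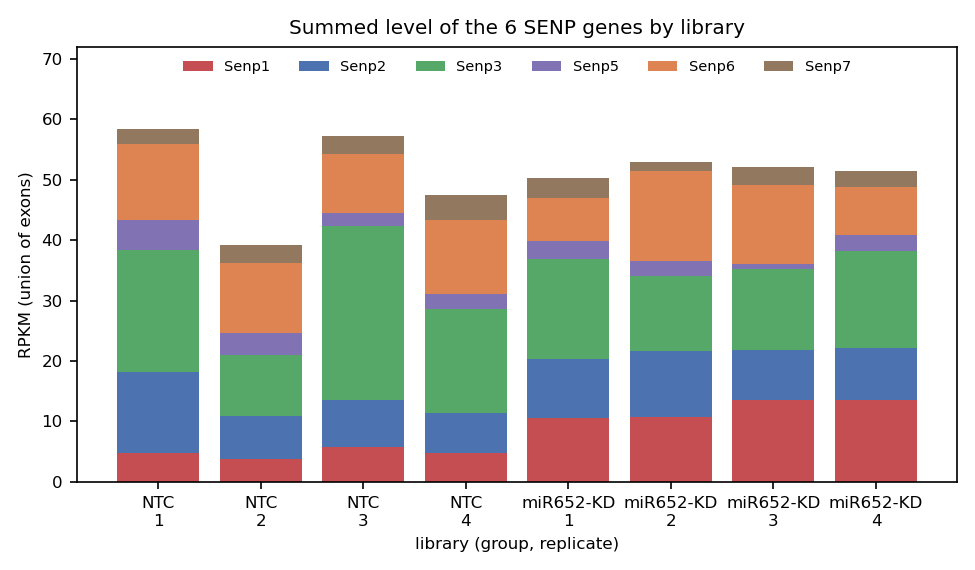
Level per length (RPKM over the union of annotated exons, y axis from 0) of the 6 SENP genes, stacked for each of the 4 NTC and 4 miR652-KD libraries (x axis). The red Senp1 segment is 3.70 to 5.67 RPKM in NTC and 10.6 to 13.5 RPKM in miR652-KD, while the whole stack ranges from 39.2 to 58.4 RPKM in NTC and from 50.3 to 53.0 RPKM in miR652-KD. The red segment restates the difference that chose Senp1.

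None of the tested genes around Senp1 passed the test. Pfkm, which encodes muscle phosphofructokinase, starts within Senp1 on the opposite strand and shares 18 exon bases with it. Its level was 68.1 ± 27.6 CPM in NTC against 73.9 ± 17.2 CPM under knockdown (SD, n = 4), with a log2 difference of 0.13 (SE 0.29) that turned to -0.039 without NTC replicate 3. Gm26513, an antisense gene that shares 462 of the 11873 exon bases of Senp1, had 7 counts over all libraries, and the small nucleolar RNA gene Gm25668 had 29. Of 13 other tested genes within 500 kb of Senp1, 0 passed edgeR's test, beside 0.0418% of all genes tested. An unadjusted edgeR p below 0.05 was found in 0 of the 13, beside 5.99% of all genes. The groups were separate in 0 of the 13, beside 4.5% of all genes. At such shares a set of this size is likely to give counts near 0. The log2 differences of the 13 had a median of 0.12. The largest were those of Adcy6, at 0.997 (SE 0.52), and 9330020H09Rik, at 1.03 (SE 1.14), both of low level and named after their values were seen. Reads of genes that overlap on opposite strands cannot be separated unless strand was used, and the sources used here do not give that setting.

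**Figure D4:**
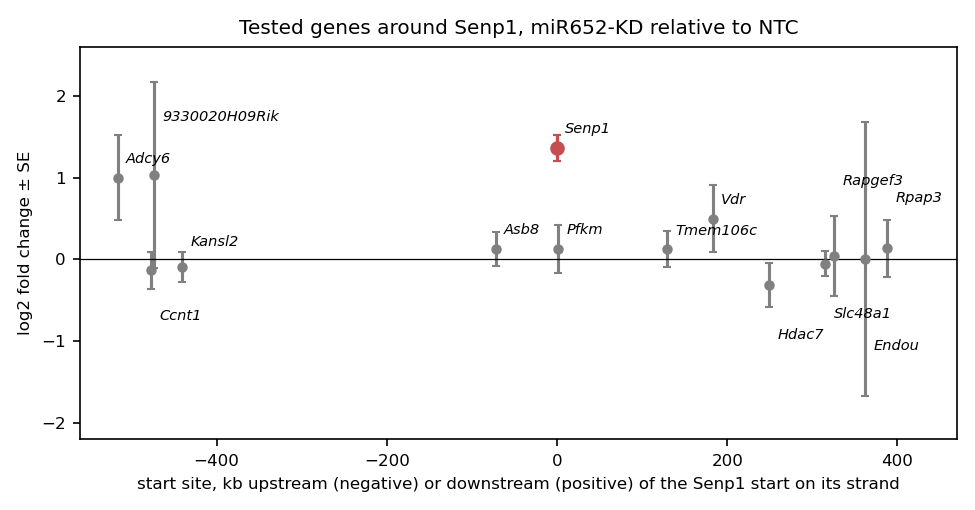
Log2 fold change ± SE of miR652-KD relative to NTC (y axis) for Senp1 (red) and 13 other tested genes (grey), by the distance of their start from the Senp1 start in kb (x axis, negative upstream). Senp1 stands at 1.37, and Pfkm and Asb8, the nearest starts on either side, at 0.13 each.

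Other members also overlap annotated genes. Senp5 shares 131 exon bases with Ncbp2, a cap-binding protein gene, whose level was 81.5 ± 24.9 CPM in NTC against 83.3 ± 23.02 CPM under knockdown (SD, n = 4; log2 difference 0.036, SE 0.26). The pseudogene Hmgb1-ps6 inside Senp5 and the antisense gene Gm17477 inside Senp6 had low mean levels in NTC and miR652-KD, 0.616 and 1.34 CPM for the former and 4.55 and 4.59 CPM for the latter. Sumo3 shares 346 of 3660 exon bases with the readthrough gene Gm49325, which was listed at 0 counts in all libraries. Sumo2 has 13 annotated genes that match at least 80% of its coding sequence at 90% identity or more, and these held 9.09% as many counts as Sumo2. Most of that was Samd8 (6.94%, its whole gene counted, with a Sumo2-like stretch in a transcript) and the pseudogene Gm10241 (1.05%). Reads of such copies could be split between genes or left uncounted, so the level of Sumo2 is uncertain, and the size of that uncertainty was not measured. For Sumo3 the 1 copy held 0.145%, and Senp2 and Senp5 had 1 copy each with 0 counts.

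The rest of the SUMO system was read from lists of 27 genes, all of them tested. None passed over all genes: 0 were higher and 0 lower in edgeR's test, the smallest adjusted p was 0.764, and 5 had an unadjusted p below 0.05, beside 5.99% of all genes. DESeq2 and limma-voom also called 0 of them. Of the 27, 19 had values above 0 and 8 below, with a median log2 difference of 0.095 against -0.00434 for all tested genes. The groups were separate for 3 of them, Pias1, Rnf4 and Daxx, a share to be read beside the 4.5% of all genes.

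Sae1 and Uba2 form the activating heterodimer. Sae1 was at 239, 187, 232 and 171 CPM in NTC and at 256, 258, 214 and 285 CPM in miR652-KD. Here 3 of the knockdown libraries lay above all controls and replicate 3 within their range. The group levels were 207 ± 33.1 and 253 ± 29.5 CPM (SD, n = 4), and the difference of 0.29 on the log2 scale (SE 0.14) did not pass (edgeR adjusted p = 0.844). Uba2, with a log2 difference of 0.31 (SE 0.17), did not pass either.

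Among 11 E3 ligase genes the log2 difference was positive in 6 and negative in 5, around a median of 0.00563. Pias1, a ligase of the PIAS family, was at 135, 136, 155 and 131 CPM in NTC and at 130, 93.4, 118 and 106 CPM in miR652-KD. The groups only just failed to meet, at 130.9 and 130.4 CPM. On the log2 scale it differed by -0.31 (SE 0.13, edgeR adjusted p = 0.832). Trim28, a chromatin corepressor that also acts as a SUMO ligase, was at 317 ± 24.6 and 353 ± 52.2 CPM (SD, n = 4; 0.16, SE 0.12; 0.10 without miR652-KD replicate 3 and 0.25 without miR652-KD replicate 4). The non-SENP SUMO proteases Desi1, Desi2 and Uspl1 all had values above 0, led by Desi2 at 0.28 (SE 0.22), with a median of 0.16 and 0 past the test. Without NTC replicate 3 the value for Desi2 was 0.12, and without NTC replicates 3 and 4 it was 0.0057. Rnf4, which attaches ubiquitin to SUMO chains, was at 145, 210, 196 and 191 CPM in NTC and at 229, 214, 214 and 231 CPM in miR652-KD. The difference of 0.26 on the log2 scale (SE 0.13) did not pass (edgeR adjusted p = 0.875), and it was 0.15 without NTC replicate 1, the lowest library.

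Of 9 genes for SUMO substrates and PML nuclear bodies, 6 had values above 0 and the 3 others values below (median 0.095). Daxx, a histone chaperone that binds SUMO in PML bodies, had the smallest p of the 27 genes. It was at 66.6, 41.9, 80.4 and 41.7 CPM in NTC and at 32.8, 33.2, 33.0 and 31.4 CPM in miR652-KD. The knockdown libraries lay close together below all controls, which themselves fell into a lower and a higher pair. The log2 difference of -0.82 (SE 0.24, 95% interval -1.35 to -0.28) did not pass over all genes (edgeR adjusted p = 0.764). Pcna, the replication clamp and a SUMO substrate, went from 217 ± 38.6 to 273 ± 29.9 CPM (SD, n = 4; 0.34, SE 0.15). The known SENP1 substrates stood at 0.17 (SE 0.24) for Hif1a and 0.02 (SE 0.42) for Gata1, both overlapping between groups and named for that role. These are transcript levels and do not show how much SUMO the proteins carry. G2 and M phase markers were above 0 in 14 of 15 genes, beside 7113 of all 14360 genes tested, and 0 of the 15 passed edgeR's test. Their summed levels overlapped, at 607 to 970 CPM in NTC and 753 to 1658 CPM in miR652-KD. These markers tend to move together, and their part in the values of Pcna, Senp1 and the other members was not tested.

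**Figure D5:**
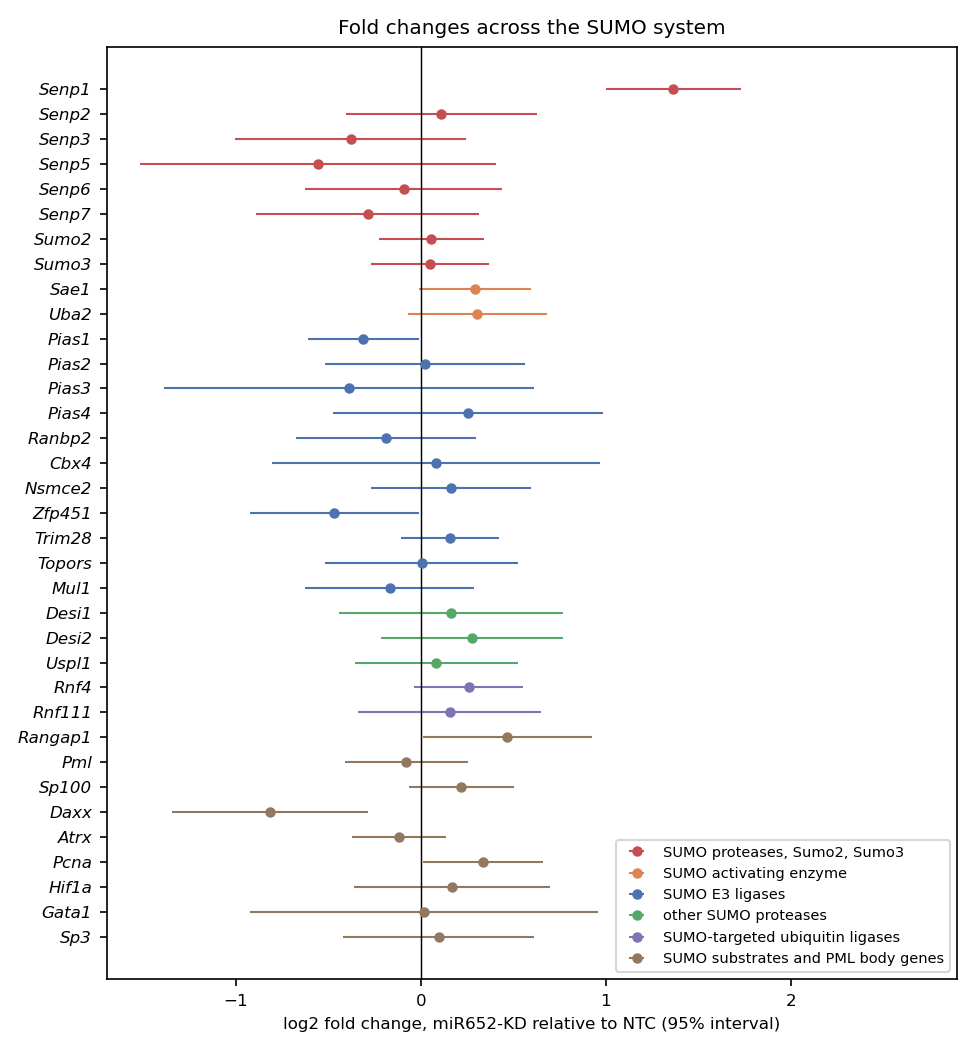
Log2 fold change of miR652-KD relative to NTC with its 95% interval (x axis) for the 8 members and the 27 other SUMO-system genes, coloured by list. Senp1 stands at 1.37, Daxx lies lowest at -0.82, and the interval of Senp1, from 1.00 to 1.73, is the only one that reaches above 1.

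The NEDD8 pathway, a parallel modifier system with its own SENP-type protease Senp8, was read in the same way. Of 7 genes listed 5 were above 0, with a median of 0.22. The 7 include Uba1, which encodes the activating enzyme of ubiquitin, and its log2 difference of 0.22 (SE 0.15) is that median. The number past the test was 0, beside 0.0418% of all genes tested, and 4.5% of all genes had separate CPM ranges. Nedd8, the modifier, was measured at 205 ± 21.97 CPM in NTC against 255 ± 11.99 CPM under knockdown (SD, n = 4) without overlap, and its value of 0.31 on the log2 scale (SE 0.11) did not pass (edgeR adjusted p = 0.781). Uba3, of its activating enzyme, was at 52.8 ± 12.2 and 32.3 ± 8.52 CPM (SD, n = 4) with overlap, at -0.70 (SE 0.25, adjusted p = 0.782). Senp8 itself had a log2 difference of 0.61 (SE 0.44), with 6.99 to 20.9 CPM in control and 9.61 to 22.9 CPM in knockdown libraries. Of 12 target genes of HIF-1, 11 were tested (Adm had 0 counts), with 5 values above 0 and 6 below (median -0.00075). Here too 0 passed, beside the same 0.0418% of all genes. Pgk1 stood at 0.10 (SE 0.13) and Car9 at -0.45 (SE 0.32). Car9 was at -0.22 without miR652-KD replicate 3 and at -0.68 without miR652-KD replicate 4.

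The genes most like Senp1 across the 8 libraries, by Pearson r of log2 CPM among 10129 protein-coding genes averaging 5 CPM or more, were the kinase gene Camk2d (r = 0.977), the interferon-induced Ifitm3 (0.976), the MHC class II gene H2-Aa (0.967), Babam1 of the BRCA1-A complex (0.954) and the invariant chain gene Cd74 (0.952). All 5 separated the groups, so the likeness rests largely on the difference that chose Senp1. After subtraction of each group's mean, r was 0.873 for Camk2d, 0.656 for Ifitm3, 0.542 for H2-Aa, 0.700 for Babam1 and 0.533 for Cd74. None of these 5 was among the 5 genes most like Senp1 by that measure. Of the members, Senp3 was the most like Senp1 within groups (r = 0.748, but -0.16 over all 8 libraries), and Senp5 the least (-0.55 within groups and -0.58 over all). These are descriptions over 8 libraries that share their depth and preparation.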

How the data were processed

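Bulk RNA-seq counts of 4 NTC and 4 miR652-KD libraries were used. As deposited by the authors, each file gives raw read counts for every gene and 5 summary lines, which entered neither library sizes nor tests. The submitters' processing notes name HISAT2 2.1.0, HTSeq 0.11.2, DESeq2 and mm10, and the sources used here give neither annotation release nor strand setting. Reads that HTSeq assigned to no feature were 9.69% to 16.9% and ambiguous reads 8.94% to 12.3% of each file, and lines for non-unique alignments were 0. Identifiers were matched without version to GENCODE M21 (55394 of 55487). Groups were compared with edgeR 4.0.16 (R 4.3.3; TMM, filterByExpr, robust quasi-likelihood F test), adjusted by Benjamini-Hochberg over 14360 genes and called below 0.05. Intervals are 95% t intervals from its SE. CPM in the text are unscaled. DESeq2 1.42.0 and limma 3.58.1 were alternatives, as were other scalings and filters, a replicate block and left-out libraries. The edgeR procedure was tested on simulated counts. Replicates of a group differed by more than sampling noise. The members, lists and tests were chosen with earlier results of these data known. Some genes of the SUMO system are not reported here. Named genes were the members, genes overlapping a member or within 10 kb of Senp1, the gene of smallest p in each direction of each list and the 5 genes most like Senp1. Copies of members were named above 1% of the member's count. Hif1a, Gata1, Senp8, Uba1, Uba2, Tmem164, Adcy6 and 9330020H09Rik fall outside that rule and were added after their values were seen.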

Additional observations from a re-analysis of the deposited data

Results flagged for a closer look

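Each result below comes from a group of 4 libraries in which 1 library stood apart, the gap to its nearest neighbour taking more of the group's range than the 95% critical value of Dixon's test. Chance flags about 1 in 20 groups, and 6 of the 56 groups examined (28 named genes) met the rule. Senp2 was at 92.9 CPM in NTC replicate 1, against 46.5 to 54.3 CPM in the other NTC libraries. The same library held Nedd8 at 173 CPM, against 212 to 220 CPM, and Gm17477, the antisense gene inside Senp6, at 11.2 CPM, against 2.07 to 2.80 CPM. That library also had the highest share of reads assigned to no feature, 16.9%, and the part of this in these values was not tested. In miR652-KD, Uba3 was at 45 CPM in replicate 4 (27.2 to 29.7 CPM in the others), Pgk1 at 196 CPM in replicate 3 (238 to 246 CPM) and Hmgb1-ps6 at 3.77 CPM in replicate 2 (0.402 to 0.681 CPM).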

How the results depend on the processing

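The count of all genes called was 6, moved to 131 with DESeq2, and to 0 with the replicate block, without NTC replicates 3 and 4 together and without each single library (range 0 to 0, with 789 to 992 genes at an unadjusted p below 0.05); Senp1 was the 1 member called and went to 0 under the same settings but DESeq2. Senp1 had a log2 fold change of 1.37 with the replicate block (adjusted p = 0.129), 1.54 without NTC replicates 3 and 4, and 1.28 to 1.47 without single libraries. These settings leave fewer libraries or degrees of freedom, and the cause was not tested further. Same-numbered libraries did not deviate together (r of -0.03 to -0.01), and the highest r with another number was only 0.024 to 0.046. With values this low the measure cannot settle whether same-numbered libraries share a source. Values near 0 turned sign without single libraries: Senp6 ranged from -0.28 to 0.062, Sumo2 from -0.018 to 0.13, Sumo3 from -0.055 to 0.16, Pfkm from -0.039 to 0.37, Ncbp2 from -0.11 to 0.24 and Gm17477 from -0.29 to 0.97. Without NTC replicates 3 and 4, Senp2 turned to -0.11, Pfkm to -0.28 and Gm17477 to -0.49. With the longest transcript as the length, NTC levels were 8.46 RPKM for Senp1, 13.5 for Senp2, 30.0 for Senp3, 15.8 for Senp6, 9.20 for Senp7, 240 for Sumo2 and 155 for Sumo3. The genes most like Senp1 shared 1 of 5 with the list by Spearman's rho and 0 with the group-centred one. Any 6mer match to the 5p arm was found in 4 of 8 members, beside 35.4% of 11615 genes. Over the 28 named genes, 422 of 473 alternative values kept direction and side of the threshold, 32 no longer passed, 3 newly passed and 16 turned sign. Using exon bases shared with no other gene, and leaving NTC replicates 3 and 4 out of the ratios, were added after seeing the data. Reads are not independent molecules, so depth limits cover counting error only.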
